A study of Mus musculus with 4 samples.

Results

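A set of 10 genes that have been proposed as markers of gastric stem or progenitor cells were followed in sorted epithelial cells of the mouse stomach corpus. They are Lrig1, Lgr4, Lgr5, Tnfrsf19, Runx1, Bmi1, Prom1, Cd44, Sox9 and Sox2, a list set by name, and all 10 were found among the 55335 rows of the deposited table. The cells came from C57BL/6 mice of 6-8 weeks carrying the Iqgap3-2A-tdTomato allele, which makes a red fluorescent protein from the Iqgap3 locus. Living EpCAM+ cells were divided by tdTomato signal: IQ3pos holds the bright cells and IQ3neg those with little or none, so both fractions carry the allele and both are mixtures of epithelial cells. Each fraction has 2 SMART-SeqII libraries, in which cDNA of whole transcripts is amplified by PCR. IQ3pos_1909A and IQ3neg_1909B each came from 3 mice, and IQ3pos_1910A and IQ3neg_1910B each from 4 mice. The labels do not say whether the libraries of one number came from the same mice.

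The corpus gland renews from dividing cells in the isthmus, a narrow zone below the surface pits. From there cells move up to become pit cells or down to become neck, parietal and zymogen-secreting chief cells, and some chief cells at the base can re-enter division after injury. The 10 genes were put forward as markers of one or another of these cell pools. Several encode surface receptors or regulators of stem cell signalling: the R-spondin receptors Lgr4 and Lgr5, the ERBB inhibitor Lrig1 and the TNF receptor relative Tnfrsf19, also called Troy. Prom1 and Cd44 encode surface glycoproteins, Runx1, Sox9 and Sox2 transcription factors, and Bmi1 a Polycomb repressor subunit.

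Values are CPM, counts per 1000000 reads assigned to genes. Depth ran from 90714929 to 418401262 reads in genes per library. The 4 most abundant genes took 53.6% and 48.9% of reads in the IQ3neg libraries and 16.6% and 11.5% in the IQ3pos libraries. The median of all 13019 tested genes was 0.68 higher in IQ3pos on the log2(CPM + 1) scale, and 0.04 higher after TMM scaling, which adjusts for the composition of a library. All 5 epithelial markers examined were above 1 CPM in each library. Immune markers summed to between 10.8 and 136 CPM, fibroblast markers to between 0.183 and 28.4 CPM, and endothelial, muscle, and Schwann and nerve markers to no more than 1.93 CPM. Gast, encoding the antral hormone gastrin, stood at 0 in both 3-mouse libraries, 19.6 CPM in IQ3pos_1910A and 487 CPM in IQ3neg_1910B, although the labels give corpus for all 4. Pdx1, the other antral marker examined, was highest in IQ3pos_1910A, at 1.39 CPM, and stood at 0.217 CPM in IQ3neg_1910B. Iqgap3, the reporter gene, read 0.220 CPM in IQ3pos_1909A, 9.32 in IQ3pos_1910A, 0.0435 in IQ3neg_1909B and 0.452 in IQ3neg_1910B, so the fractions differed in the labelled direction in each pool but IQ3pos_1909A lay below IQ3neg_1910B.

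Of the 9 markers tested, Lgr4 alone had a difference between fractions that was larger than the gap between libraries of the same fraction. The test was limma on log2(CPM + 1) over genes whose mean reached 1 CPM, as it did for 9 of the 10 (Tnfrsf19 did not). None of the 9 passed at an adjusted p of 0.05, where 0% of all genes tested did, and 1, Lgr4, had an unadjusted p under 0.05, where 18.2% of all genes did as higher and 4.98% as lower. No marker passed in limma on TMM-scaled CPM, where 0.23% of all genes did (0.0461% higher, 0.184% lower), or in edgeR's quasi-likelihood test, where 0.267% did (0.0535% higher, 0.214% lower). The median log2 difference of the 9 was 0.66, beside 0.68 for all genes. For Lgr4 and Sox9 each IQ3pos library exceeded each IQ3neg library, as for 40.9% of all genes, and for none of the 9 was it the reverse, as for 14.2%. With TMM-scaled CPM, Lgr4 was the one higher in both (24.7% of all genes) and Cd44 the one lower in both (23% of all genes). In bulk samples, fewer cells of a type and less RNA per cell cannot be told apart.

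**Figure D1:**
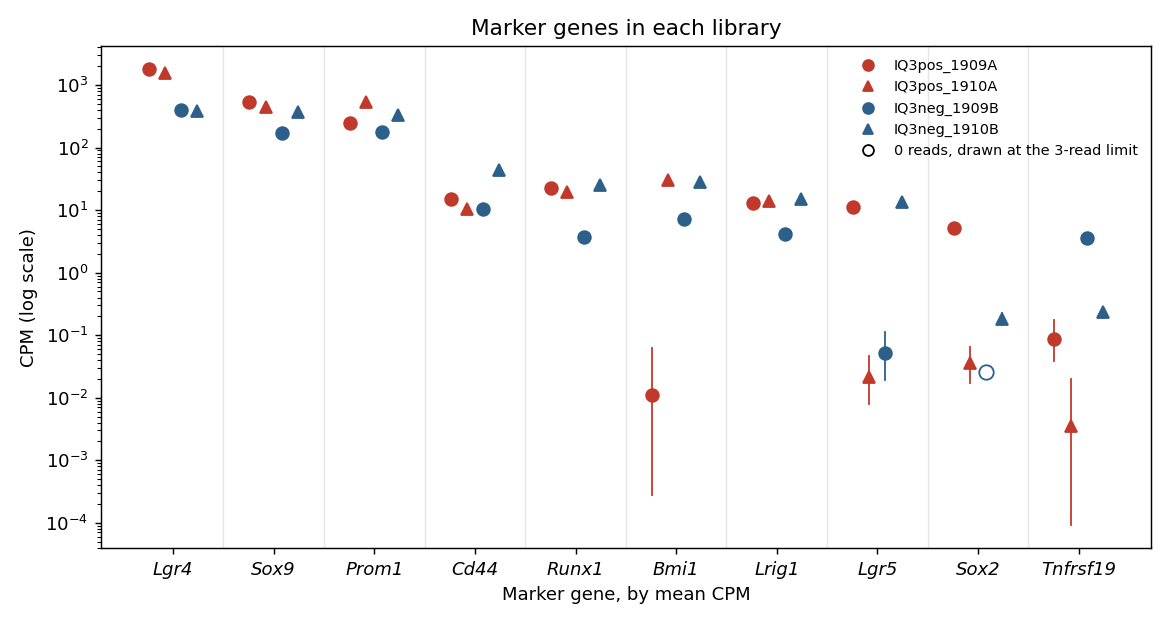
CPM of the 10 marker genes on a log axis in the 4 libraries, red for IQ3pos and blue for IQ3neg, circles for the 3-mouse and triangles for the 4-mouse pools, with 95% exact Poisson intervals that cover counting error only. Lgr4 separates the fractions, at 1571 or more against 402 or less. Lgr5, Bmi1, Sox2 and Tnfrsf19 each range from 3.55 CPM or more in their highest library to 6 reads or fewer in their lowest.

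Lgr4 encodes a seven-transmembrane receptor that binds R-spondins and thereby keeps Wnt receptors at the cell surface, and it is broadly made in epithelia. It lies on chromosome 2 of GRCm38 at 109917647 to 110014257, with 5884 bases of exon. Lgr4 stood at 1815 CPM in IQ3pos_1909A, 1571 in IQ3pos_1910A, 402 in IQ3neg_1909B and 384 in IQ3neg_1910B, from 46264 reads or more in each. Both IQ3pos libraries were far above both IQ3neg libraries, and libraries of the same fraction lay close together. The fold was 4.51 in the 3-mouse pools (95% counting interval 4.47 to 4.56) and 4.10 in the 4-mouse pools (4.07 to 4.12). The fraction means were 1693 ± 172 and 393 ± 13.1 CPM (SD, n = 2 each). On the log2(CPM + 1) scale they differed by 2.10 (SE 0.24, 95% interval 1.51 to 2.7, limma adjusted p = 0.0605). The difference was 1.42 above the median of all genes, and 1.33 with TMM-scaled CPM (limma adjusted p = 0.123). It passed when only genes averaging 5 CPM or more were tested (limma adjusted p = 0.0228), where 8.88% of genes passed (7.83% higher, 1.06% lower), and in the DESeq2 Wald test (adjusted p = 0.00118), where 13.8% of genes passed (5.45% higher, 8.3% lower). Without any 1 library the difference stayed between 2.00 and 2.20, with limma adjusted p from 0.155 to 0.248. Several markers of mature cell types also moved with the fractions. Values follow for IQ3pos_1909A and IQ3pos_1910A against IQ3neg_1909B and IQ3neg_1910B. The 4 pit markers summed to 9538 and 9754 against 1015 and 1364 CPM, and the 2 parietal markers to 3938 and 2925 against 424 and 495 CPM. The 2 neck markers summed to 4616 and 5900 against 678 and 1152 CPM. Of these, Tff2 stood at 4236 and 5492 against 415 and 596 CPM. Muc6 overlapped between the fractions, at 381 and 408 against 263 and 556 CPM. The 5 enteroendocrine markers went the other way, at 360 and 175 against 16173 and 10178 CPM. The part of these cells in the Lgr4 difference was not tested.

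The RefSeq promoter window of Lgr4, 250 bases before to 50 after the annotated start, is shown because Lgr4 had the one difference larger than the gap between same-fraction libraries. It lies at chr2:109917397-109917696 on the + strand of GRCm38.p6, and capitals mark the motif CCAAT, searched on both strands.
Lgr4 promoter: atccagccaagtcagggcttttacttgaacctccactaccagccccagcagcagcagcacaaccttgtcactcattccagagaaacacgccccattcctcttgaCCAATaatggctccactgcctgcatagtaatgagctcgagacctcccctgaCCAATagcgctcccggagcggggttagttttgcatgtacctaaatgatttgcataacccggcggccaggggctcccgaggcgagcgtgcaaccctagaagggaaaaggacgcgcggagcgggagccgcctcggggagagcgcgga
CCAAT or its reverse complement occurs at 2 places in it and in 37.4% of all 32544 promoter windows. The letters CTTTGA of a TCF site, found in 16% of windows on either strand, are not in it, and neither is the GC box GGGCGG, found in 35.9%. The window holds 18 CG dinucleotides, beside a median of 7. These matches describe letters, not binding.

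Lgr5, the paralog of Lgr4 and a marker of antral stem cells and of corpus chief cells, lies on chromosome 10 at 115450311 to 115587780. It was present in 1 library of each fraction and close to absent in the other. Lgr5 stood at 11.1 CPM in IQ3pos_1909A, 0.0215 in IQ3pos_1910A, 0.0522 in IQ3neg_1909B and 13.7 in IQ3neg_1910B. The low values rest on 6 reads each, and the high ones on 1009 and 5714 reads. In the 3-mouse pools Lgr5 was 213-fold higher in IQ3pos (95% counting interval 97.6 to 582), and in the 4-mouse pools it was 635-fold higher in IQ3neg (292 to 1732). The fractions overlapped completely, and the fitted log2 difference of -0.16 had a 95% interval from -4.66 to 4.35 (limma adjusted p = 0.964). Left out in turn, IQ3pos_1910A and IQ3neg_1910B turned the direction, to 1.63 and 1.74. The 6 chief cell markers summed to 45357 CPM in IQ3pos_1909A, 17789 in IQ3pos_1910A, 388219 in IQ3neg_1909B and 360484 in IQ3neg_1910B. Clps made up 340995 CPM of the IQ3neg_1909B sum and 277067 of the IQ3neg_1910B sum. Between these libraries, Clps and Pnliprp1 were higher in IQ3neg_1909B, where Lgr5 was close to absent. Pgc, Cblif, Pnliprp2 and Bhlha15 were higher in IQ3neg_1910B, where Lgr5 was high. Between the IQ3pos libraries, each of the 6 was higher in IQ3pos_1909A, where Lgr5 was high, than in IQ3pos_1910A. Clps stood at 31717 against 7144 CPM there, and Bhlha15 at 0.0882 against 0.0215 CPM. Of the 2 antral markers, Gast was at 0 in IQ3pos_1909A and IQ3neg_1909B, at 19.6 CPM in IQ3pos_1910A and at 487 CPM in IQ3neg_1910B. Pdx1 was at 0.0220 CPM in IQ3pos_1909A, 0 in IQ3neg_1909B, 1.39 in IQ3pos_1910A and 0.217 in IQ3neg_1910B. The part of chief or antral cells in the Lgr5 values was not tested.

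Tnfrsf19, a target of Wnt signalling found in a subset of chief cells, lies on chromosome 14 at 60963875 to 61046490. It was scarce throughout, with a mean of 0.968 CPM, just under the level needed for the test. Tnfrsf19 stood at 0.0882 CPM (8 reads) in IQ3pos_1909A, 0.00358 (1 read) in IQ3pos_1910A, 3.55 in IQ3neg_1909B and 0.234 in IQ3neg_1910B. Both IQ3pos libraries lay below both IQ3neg libraries. Among the tested genes, which do not include Tnfrsf19, this held for 14.2% on CPM and 23% on TMM-scaled CPM. IQ3neg was 40.2-fold higher in the 3-mouse pools (95% counting interval 20.2 to 93.8) and 65.4-fold higher in the 4-mouse pools (11.5 to 2608). With no filter on low values, limma gave a log2 difference of -1.18 (SE 1.04, adjusted p = 0.596), and edgeR's quasi-likelihood test on the reads gave -6.50 (adjusted p = 0.438). The 2 IQ3neg libraries themselves differed 15.1-fold.

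Lrig1, a transmembrane inhibitor of ERBB receptors that marks slowly cycling epithelial progenitors, lies on chromosome 6 at 94604529 to 94700158. Lrig1 stood at 12.9 CPM in IQ3pos_1909A, 14.0 in IQ3pos_1910A, 4.19 in IQ3neg_1909B and 15.1 in IQ3neg_1910B. IQ3neg_1909B was low and the other 3 libraries were nearly level, so the fractions overlapped. Lrig1 was 3.08-fold higher in IQ3pos in the 3-mouse pools and 1.07-fold higher in IQ3neg in the 4-mouse pools. The log2 difference was 0.66 (SE 0.86, 95% interval -1.49 to 2.81, limma adjusted p = 0.664), close to the median of all genes, and it was -0.02 with TMM-scaled CPM. Of its exon bases, 2.58% overlap the gene Slc25a26 on the opposite strand, and whether the counting used strand is not given in the sources used here.

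Prom1, which encodes the pentaspan glycoprotein prominin, also known as CD133, lies on chromosome 5 at 43993620 to 44102032. Prom1 stood at 245 CPM in IQ3pos_1909A, 527 in IQ3pos_1910A, 179 in IQ3neg_1909B and 334 in IQ3neg_1910B. Both 4-mouse libraries were above both 3-mouse libraries. IQ3pos was 1.37-fold higher in the 3-mouse pools and 1.58-fold higher in the 4-mouse pools. These are about the 1.60-fold shift of the median gene, and the log2 difference of 0.56 (SE 0.49, 95% interval -0.67 to 1.79, limma adjusted p = 0.519) became -0.21 with TMM-scaled CPM. The antisense gene Gm16401 shares 5.91% of the exon bases of Prom1 and stood at no more than 0.0191 CPM.

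Cd44, a hyaluronan receptor of which variant forms mark undifferentiated and metaplastic gastric cells, lies on chromosome 2 at 102811141 to 102901665. Cd44 stood at 15.1 CPM in IQ3pos_1909A, 10.4 in IQ3pos_1910A, 10.4 in IQ3neg_1909B and 44.5 in IQ3neg_1910B. One library, IQ3neg_1910B, was high and the other 3 were similar. The log2 difference was -0.75 (SE 0.85, 95% interval -2.86 to 1.36, limma adjusted p = 0.614), and it was 0.25 without IQ3neg_1910B. After TMM scaling the values were 12.0 and 7.72 in IQ3pos_1909A and IQ3pos_1910A and 15.2 and 52.0 in IQ3neg_1909B and IQ3neg_1910B, no longer overlapping, with a log2 difference of -1.46 (limma adjusted p = 0.415). Leukocytes make Cd44 as well. The 8 immune markers summed to 71.7 CPM in IQ3pos_1909A, 10.8 in IQ3pos_1910A, 136 in IQ3neg_1909B and 26.4 in IQ3neg_1910B. The part of leukocytes in the Cd44 values was not tested. Values per gene do not tell its splice forms apart.

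Runx1 encodes a DNA-binding RUNX factor best known from blood, and an enhancer of it has been used to label corpus isthmus stem cells. It lies on chromosome 16 at 92601466 to 92826149. Runx1 stood at 22.7 CPM in IQ3pos_1909A, 19.6 in IQ3pos_1910A, 3.67 in IQ3neg_1909B and 25.6 in IQ3neg_1910B. As with Lrig1, IQ3neg_1909B was the low library and IQ3neg_1910B was above both IQ3pos libraries. The log2 difference was 0.99 (SE 0.97, 95% interval -1.44 to 3.41, limma adjusted p = 0.56), and it was -0.27 without IQ3neg_1909B. Immune cells also make Runx1: the 8 immune markers summed to 71.7 CPM in IQ3pos_1909A, 10.8 in IQ3pos_1910A, 136 in IQ3neg_1909B and 26.4 in IQ3neg_1910B. The immune sum was highest in IQ3neg_1909B, where Runx1 was lowest. Among the other libraries, both the immune sum and Runx1 were lowest in IQ3pos_1910A. In IQ3pos_1910A, where Runx1 was at 19.6 CPM, Ptprc, the pan-leukocyte surface phosphatase, was at 0.0824 CPM. Other immune markers were present there, with Tyrobp at 4.59, Coro1a at 3.79 and Fcer1g at 2.21 CPM. In IQ3neg_1910B 3 of the 8 (Cd52, Cd3e and Cd79a) were at 0, and in the other libraries none. The part of immune cells in the Runx1 values was not tested.

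RefSeq lists 2 start sites of Runx1, whose transcripts the single value per gene adds together, and both windows are shown because their letters differ in the motif that RUNX proteins bind. Neither is the enhancer used as a marker. Both are on the - strand of GRCm38.p6, the first at chr16:92826025-92826324 and the second at chr16:92697280-92697579. Capitals mark the RUNX motif TGTGGT or its reverse complement.
Runx1 first promoter: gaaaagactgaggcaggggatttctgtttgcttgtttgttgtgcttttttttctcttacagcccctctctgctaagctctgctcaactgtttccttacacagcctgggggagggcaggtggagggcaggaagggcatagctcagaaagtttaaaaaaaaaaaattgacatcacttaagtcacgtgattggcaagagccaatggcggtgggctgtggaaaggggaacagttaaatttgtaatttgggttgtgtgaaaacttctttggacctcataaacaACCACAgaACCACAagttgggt
Runx1 second promoter: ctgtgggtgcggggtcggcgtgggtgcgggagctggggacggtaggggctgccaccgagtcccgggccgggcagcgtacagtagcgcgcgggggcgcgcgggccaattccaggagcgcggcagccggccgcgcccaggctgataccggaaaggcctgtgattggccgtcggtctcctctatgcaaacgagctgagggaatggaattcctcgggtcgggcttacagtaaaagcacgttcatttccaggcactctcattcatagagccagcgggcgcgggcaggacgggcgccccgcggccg
The first window holds 2 RUNX matches and 2 CG dinucleotides, and the second holds none of those matches and 35 CG dinucleotides. A match occurs in 16.7% of all windows. The deposited values cannot be divided between the 2 starts.

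Bmi1, a RING finger subunit of the Polycomb complex PRC1, which silences genes through histone H2A, lies on chromosome 2 at 18677018 to 18686629. Bmi1 stood at 0.0110 CPM (1 read) in IQ3pos_1909A, 30.8 in IQ3pos_1910A, 7.18 in IQ3neg_1909B and 28.5 in IQ3neg_1910B. The near absence was in one IQ3pos library, and the other IQ3pos library was the highest of all 4. The IQ3pos libraries differed 2794-fold, with a 95% counting interval from 501 to 110383 since 1 read stands in the ratio. The log2 difference was -1.45 (SE 1.76, 95% interval -5.84 to 2.94, limma adjusted p = 0.639), and it was 1.03 without IQ3pos_1909A. In the 4-mouse pools IQ3pos and IQ3neg differed 1.08-fold.

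Sox9, an SRY-related factor of progenitors in many endoderm organs, lies on chromosome 11 at 112782224 to 112787760. Sox9 stood at 534 CPM in IQ3pos_1909A, 440 in IQ3pos_1910A, 169 in IQ3neg_1909B and 369 in IQ3neg_1910B. Both IQ3pos libraries were above both IQ3neg libraries, by a wide step in the 3-mouse pools (3.16-fold) and a small one in the 4-mouse pools (1.19-fold). The log2 difference was 0.95 (SE 0.43, 95% interval -0.11 to 2.01, limma adjusted p = 0.25). With TMM-scaled CPM the fractions overlapped, at 424 and 326 in IQ3pos_1909A and IQ3pos_1910A against 246 and 432 in IQ3neg_1909B and IQ3neg_1910B, and the difference was 0.19.

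Sox2, an SRY-related factor of foregut progenitors and of stratified epithelium, is a single-exon gene on chromosome 3 at 34650405 to 34652461. It was found at more than a trace in 1 library. Sox2 stood at 5.14 CPM (466 reads) in IQ3pos_1909A, 0.0358 (10 reads) in IQ3pos_1910A, 0 in IQ3neg_1909B and 0.182 (76 reads) in IQ3neg_1910B. The 0 allows up to 0.0261 CPM at 3 reads, so IQ3pos was at least 197-fold higher against that floor in the 3-mouse pools, with an exact 95% lower limit of 160-fold from the counts, while IQ3neg was 5.07-fold higher in the 4-mouse pools (95% counting interval 2.61 to 11). The log2 difference was 1.21 (SE 1.08, 95% interval -1.47 to 3.90, limma adjusted p = 0.519), and Sox2 reached the level needed for the test through IQ3pos_1909A alone. The 5 squamous forestomach markers summed to 7.48 CPM in IQ3pos_1909A, 0.179 in IQ3pos_1910A, 0.00869 in IQ3neg_1909B and 2.97 in IQ3neg_1910B. Sprr1a, a cornified envelope gene, made up 7.21 CPM of the first sum and 1.77 of the last. Krt13 was highest in IQ3neg_1910B, at 1.17 CPM, and stood at 0.0551 in IQ3pos_1909A. Krt14 was highest in IQ3pos_1909A, at 0.165 CPM. The basal keratin gene Krt5 was at 0 in 3 libraries and at 0.00358 CPM in IQ3pos_1910A. Trp63, the basal cell factor, was at no more than 0.0573 CPM. The part of squamous cells in the Sox2 values was not tested. Sox2 lies inside the noncoding gene Sox2ot and shares no exon base with it. Sox2ot read 0.0551 CPM in IQ3pos_1909A, 0.0502 in IQ3pos_1910A, 0 in IQ3neg_1909B and 4.39 in IQ3neg_1910B, so it was high in another library than Sox2.

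**Figure D2:**
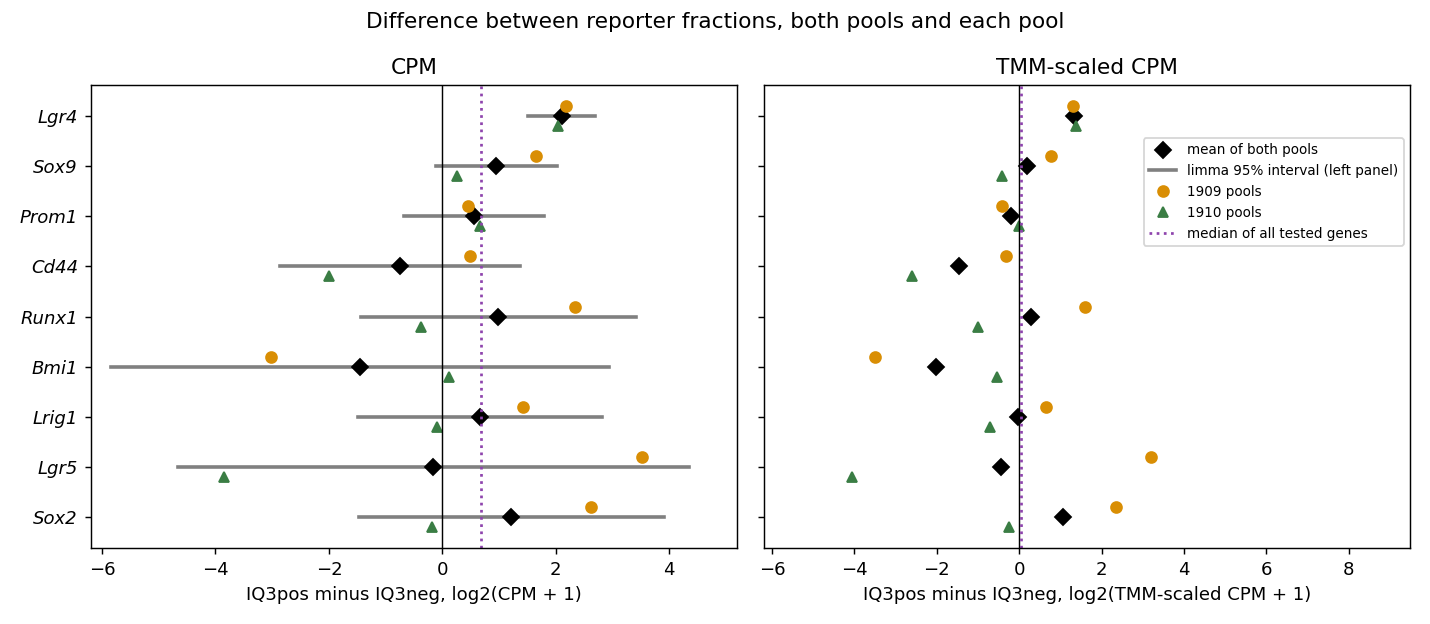
Difference IQ3pos minus IQ3neg for the 9 tested markers, on the log2(CPM + 1) scale at left and with TMM-scaled CPM at right; diamonds are means over both pools, circles the 3-mouse pools, triangles the 4-mouse pools, bars limma's 95% intervals and the dotted line the median of all tested genes. Lgr4 is near 2.10 in each pool at left and near 1.33 at right, whereas Lgr5 lies at 3.53 in one pool and -3.84 in the other.

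The pools disagreed for most markers. The sign of the difference was opposite in the 3-mouse and 4-mouse pools for 6 of the 9 tested (Lrig1, Lgr5, Runx1, Bmi1, Cd44 and Sox2), against 30.3% of all tested genes. On CPM, Lrig1 and Bmi1 were near 0 in the 4-mouse pools, at -0.10 and 0.11 on the log2 scale. With TMM-scaled CPM the sign was opposite for 5 of the 9 (Lrig1, Lgr5, Runx1, Sox9 and Sox2), against 34.4%. Bmi1 and Cd44 then had the same sign in both pools. In 8 of the 9, every one but Lgr4, the larger gap between same-fraction libraries exceeded the difference between fractions, on CPM (57.9% of all genes) and on TMM-scaled CPM (66.3%). The median larger gap was 1.99 for the 9 and 1.38 for all genes, on the log2(CPM + 1) scale.

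The markers split by level. Per kilobase of exon, Lgr4 ranged over the libraries from 65.2 to 308 CPM, Sox9 from 40.9 to 129 and Prom1 from 24.9 to 73.5. The other 7 stayed at or below 7.75, the value of Bmi1 in IQ3pos_1910A. The ranges of these 3 overlapped each other and lay above the lower 7. Within each of the 4 libraries Prom1 was below Sox9 and Lgr4 per kilobase, while Lgr4 was above Sox9 in 3 and below it in IQ3neg_1910B. In order of mean per kilobase the lower 7 were Bmi1, Cd44, Lrig1, Runx1, Sox2, Lgr5 and Tnfrsf19, and the range of each over the libraries overlapped those of its neighbours. Markers whose lowest library was under 1% of their highest were Lgr5 (0.157%), Bmi1 (0.0358%) and Sox2 (0%) among those tested. Tnfrsf19 was at 0.101%. The low library was a different one for Lgr5, Bmi1 and Sox2: IQ3pos_1910A, IQ3pos_1909A and IQ3neg_1909B. Such gaps occurred in 32.1% of all tested genes: in 65.2% of genes with a mean from 1 to 5 CPM, 21.9% from 5 to 50 CPM, 1.4% from 50 to 500 CPM and 1.81% at 500 CPM or more. Of the 5 markers with a mean from 5 to 50 CPM, 2 had such a gap, and of the 3 with higher means none did.

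**Figure D3:**
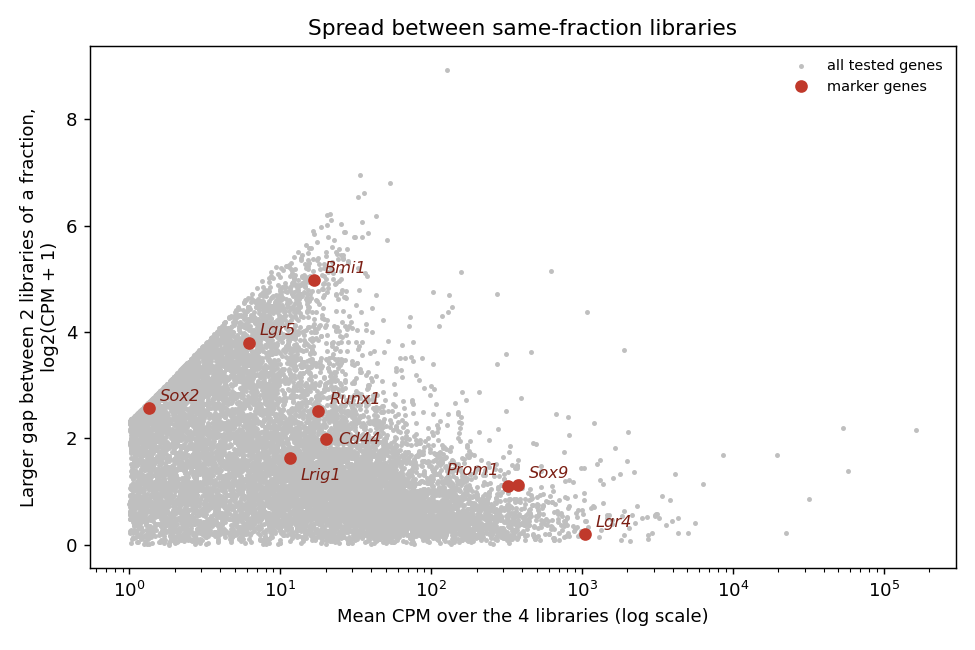
Mean CPM on a log axis against the larger gap between 2 libraries of one fraction on the log2(CPM + 1) scale, for all 13019 tested genes in grey and 9 markers in red. The spread narrows with level; Bmi1 reaches 4.98 and Lgr4 is at 0.21.

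The lowest of the 4 libraries was IQ3neg_1909B for 6 of the 10 markers (Lrig1, Runx1, Prom1, Cd44, Sox9 and Sox2), and it was the lowest for 43.0% of all tested genes. With TMM-scaled CPM it was the lowest for 4, against 29.2% of all, and IQ3neg_1910B was the highest for 7, against 19.1% of all. Against 64 genes, made up of the other markers and the related genes listed by family, likeness was measured as the root mean square distance between centred log2(CPM + 1) profiles over the 4 libraries. Lrig1 was nearest to Sox9 (0.27) and Runx1 (0.37), and Sox9 was nearest to Lrig1 and then to Sox4 (0.34). These 4 share a low IQ3neg_1909B. Lgr4 was nearest to Pcgf6 (0.20) and Erbb3 (0.21), Lgr5 to Pcgf1 (0.71), Bmi1 to Cbx7 (0.73), Prom1 to Lrig1 (0.44), Cd44 to Sox11 (0.22) and Sox2 to Rnf43 (0.42). Each distance rests on 4 libraries.

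Of 20 other genes proposed as gastric stem or progenitor markers, 15 were tested and none passed limma's test. On CPM, 5 were higher in both IQ3pos libraries and 4 lower in both, where 40.9% and 14.2% of all genes were, and with TMM-scaled CPM 4 and 5, where 24.7% and 23% were. Those of highest mean CPM were the division genes Mki67 and Stmn1. Mki67 stood at 163 and 360 CPM in IQ3pos_1909A and IQ3pos_1910A against 30.3 and 38.4 CPM in IQ3neg_1909B and IQ3neg_1910B (log2 difference 2.79, limma adjusted p = 0.0659). Stmn1 stood at 109 and 264 against 9.80 and 31.2 CPM (3.19, limma adjusted p = 0.0832). Msi1, Smoc2 and Bhlha15 were chosen after their values were seen. Msi1, an RNA-binding protein gene, stood at 6.24 and 2.94 against 77.9 and 67.4 CPM (-3.78, limma adjusted p = 0.0659). Smoc2, a companion of Lgr5 in intestinal stem cells, stood at 0.0441 and 0.0179 CPM in IQ3pos_1909A and IQ3pos_1910A against 8.82 and 17.3 in IQ3neg_1909B and IQ3neg_1910B (-3.70, limma adjusted p = 0.11). Bhlha15, the chief cell factor Mist1, stood at 0.0882 and 0.0215 against 3.48 and 5.15 CPM. Smoc2 and Bhlha15, picked with their values known, were lower in both IQ3pos libraries, and Lgr5 was not. Also named after their values were seen, Aqp5, Aldh1a1 and Itga6 were higher in both IQ3pos libraries on CPM, and Cckbr lower in both. Aqp5 stood at 0.110 CPM in IQ3pos_1909A and 13.0 in IQ3pos_1910A, against 0 in IQ3neg_1909B and 0.0143 in IQ3neg_1910B. With TMM-scaled CPM, Itga6 overlapped between the fractions.

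**Figure D4:**
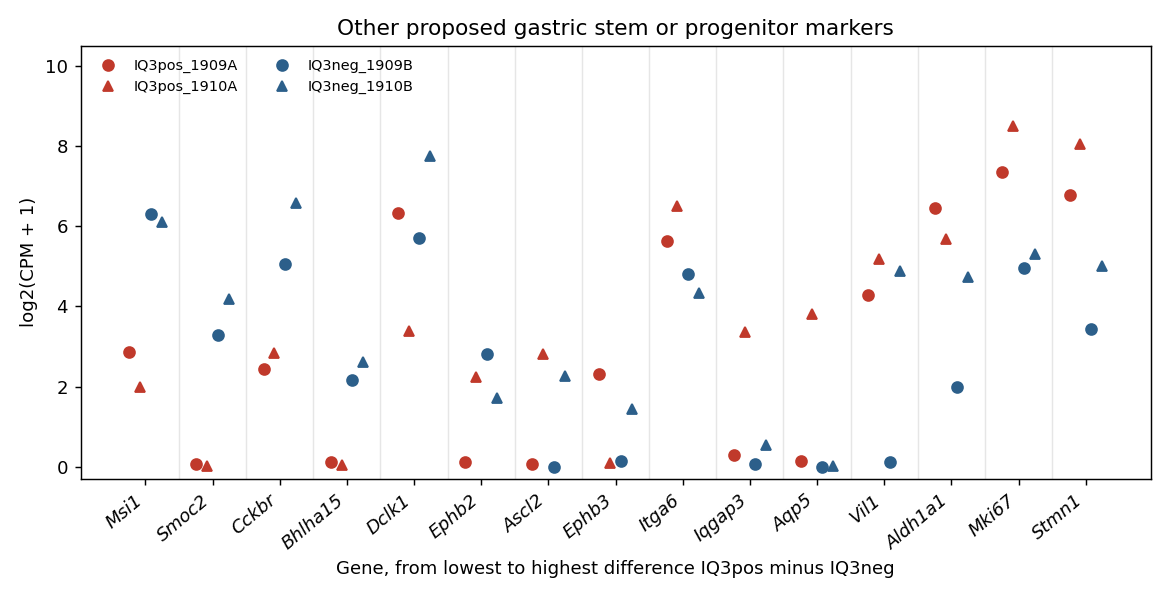
log2(CPM + 1) of the 15 tested genes among other proposed gastric stem or progenitor markers, ordered by their difference between fractions, with red for IQ3pos, blue for IQ3neg, circles for the 3-mouse and triangles for the 4-mouse pools. Msi1, Smoc2 and Bhlha15 are lower in both IQ3pos libraries at left, and Mki67 and Stmn1 higher in both at right.

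Of 14 partners of the R-spondin receptors, 6 were tested and none passed. On CPM 3 were higher and 1 lower in both IQ3pos libraries (40.9% and 14.2% of all genes), and with TMM-scaled CPM 2 and 2 (24.7% and 23%). Znrf3, the ubiquitin ligase that R-spondin receptors remove, stood at 275 and 300.2 CPM in IQ3pos_1909A and IQ3pos_1910A against 220 and 208 in IQ3neg_1909B and IQ3neg_1910B, a log2 difference of 0.42 that was -0.34 with TMM-scaled CPM. Lrp6, a Wnt co-receptor, stood at 61.0 and 23.9 against 30.8 and 27.9 CPM. Lgr6, Axin2 and Fzd7 were chosen after their values were seen. Lgr6, the remaining receptor of this family, stood at no more than 0.0882 CPM, and the Wnt target Axin2 at no more than 0.392 CPM. Fzd7, a Wnt receptor, stood at 5.56 CPM in IQ3pos_1909A, 7.09 in IQ3pos_1910A, 0.0174 in IQ3neg_1909B and 0.0287 in IQ3neg_1910B (2.83, limma adjusted p = 0.145).

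Of 18 other PRC1 genes, 17 were tested and none passed. On CPM 4 were higher and 3 lower in both IQ3pos libraries (40.9% and 14.2% of all genes), and with TMM-scaled CPM 2 and 4 (24.7% and 23%). Rnf2, the catalytic partner of Bmi1, stood at 26.4 and 22.1 CPM in IQ3pos_1909A and IQ3pos_1910A against 34.7 and 29.3 in IQ3neg_1909B and IQ3neg_1910B. Rnf2 was thus present in IQ3pos_1909A, where Bmi1 had 1 read. Pcgf6, a relative of Bmi1, stood at 34.9 and 33.5 against 9.95 and 9.36 CPM (1.73, limma adjusted p = 0.154). Cbfb, the partner of RUNX proteins, stood at 12.8 and 80.1 against 20.2 and 22.9 CPM, and Runx2 and Runx3 did not reach a mean of 1 CPM.

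Of 14 other SOX genes, 5 were tested and none passed. Sox4 stood at 82.9 and 41.1 CPM in IQ3pos_1909A and IQ3pos_1910A against 26.3 and 37.5 in IQ3neg_1909B and IQ3neg_1910B, and Sox21 at 13.2 and 8.52 against 2.74 and 3.31 CPM. Among 6 LRIG relatives and ERBB receptors, 5 were tested and none passed: Erbb3, whose protein LRIG1 restrains, stood at 54.3 and 47.8 against 11.2 and 15.4 CPM (1.87, limma adjusted p = 0.115), and Lrig2 at 24.5 and 15.5 against 21.6 and 13.4 CPM. All 6 CD44 partners and splicing factors were tested and none passed. Ezr, which links CD44 to actin, stood at 316 and 304 against 37.5 and 70.5 CPM (2.57, limma adjusted p = 0.0659), and Esrp1, an epithelial splicing factor, at 77.6 and 46.7 against 31.6 and 32.6 CPM. Prom2, the relative of Prom1, stood at 0.110 and 0.0681 CPM against 4.46 and 5.51 CPM, below both IQ3neg libraries where Prom1 was not (-2.45, limma adjusted p = 0.178). The TROY relatives Edar and Eda2r were at no more than 0.0992 CPM.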

How the data were processed

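CPM per gene symbol and library were deposited. STAR 2.7.1a, Subread 2.0.0 with featureCounts, and edgeR are the tools that the submitters' processing notes list, with GRCm38/mm10 as build and no roles stated. The sources used here do not give the annotation, strand or multi-mapping settings. All deposited CPM above 0 (100%) were whole multiples of 1 read within 0.05, which returned the reads for count tests. There are no molecular identifiers, so intervals cover counting error only.

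Differences are IQ3pos minus IQ3neg from limma 3.58.1 with a trend (R 4.3.3). The fit used log2(CPM + 1) of 13019 genes averaging 1 CPM or more, without a block, two-sided, with Benjamini-Hochberg adjustment and a threshold of 0.05. The scale understates changes of low genes. Each library is a pool of mice, and the p-values reflect only how these libraries vary, which may be technical. Levels have 95% exact Poisson intervals, folds exact conditional binomial ones. Other pseudocounts, filters, scalings, libraries left out, a replicate block, edgeR 4.0.16 quasi-likelihood with TMM and DESeq2 1.42.0 were tried. The main fit and edgeR were also run on simulated counts. Those counts had the same dispersion for every gene and no losses in particular libraries, so they do not cover the gaps seen here. The markers and lists were chosen with earlier results of these data known. All 10 markers are described, and from each related list the genes past the threshold or otherwise the 2 of highest mean CPM, unless said to be chosen after values were seen. Gene positions are from GENCODE vM21 on GRCm38, 1-based. Promoter windows are from RefSeq on GRCm38.p6, which gave them for 8 of the 10.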

Additional observations from a re-analysis of the deposited data

How the results depend on the processing

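Over all genes, 0 passed in limma on log2(CPM + 1) (2373 higher and 648 lower at an unadjusted p under 0.05), and 0 without any one library. The count was 782 with a mean of at least 5 CPM, 30 with TMM-scaled CPM, 41 with DESeq2-scaled CPM, 11 without the 20 most abundant genes, 45 in edgeR's quasi-likelihood test and 1791 in the DESeq2 Wald test. Of the markers, 1 passed with a mean of at least 5 CPM and 1 in the DESeq2 Wald test, Lgr4 both times, and 0 without any one library. A replicate block for the library number gave 1341 genes and 1 marker (Lgr4, limma adjusted p = 0.00405). Deviations of the 3-mouse libraries from their fraction means correlated at r = 0.148 across genes, and with 2 numbers this does not show that the libraries are pairs.

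Lgr4 was higher in IQ3pos under each of 14 alternatives, from 1.11 to 2.20. Sox2 could not be tested without IQ3pos_1909A or with a mean of at least 5 CPM, so its sign could not turn by those. Of 124 values of the 9 tested markers, 19 turned in sign. Lrig1 was -0.024 with TMM-scaled CPM, -0.058 with DESeq2-scaled CPM, -0.23 without the 20 most abundant genes, -0.36 in edgeR and -0.17 in DESeq2. Prom1 under the same settings was -0.21, -0.24, -0.43, -0.21 and -0.16. Runx1 was -0.30 in edgeR and -0.070 in DESeq2, and Sox9 -0.033 without the 20 most abundant genes. With any 1 library left out, where the lone library of a fraction is assumed to vary like the other fraction, Lrig1 ranged from -0.15 to 1.48, Lgr5 from -2.06 to 1.74, Runx1 from -0.27 to 2.24, Bmi1 from -3.94 to 1.03 and Cd44 from -1.75 to 0.25. Without a turn in sign, Prom1 ranged from 0.0068 (without IQ3pos_1910A) to 1.11 (without IQ3pos_1909A), Sox9 from 0.39 (without IQ3neg_1909B) to 1.51 (without IQ3neg_1910B) and Sox2 from 1.09 (without IQ3neg_1909B) to 2.50 (without IQ3pos_1910A). The cause was not tested. In checks chosen after seeing the data, the 3 markers with a library under 1% of the highest stayed 3 at thresholds of 0.5% (26.7% of all tested genes) and 5% (41.1%) and with TMM-scaled CPM (33.3%), and became 2 without IQ3pos_1909A (23.5%).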
